A study of Caenorhabditis elegans with 20 samples.

Results

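The regions described here were 1 kb bins, selected on wild-type H3K27me3 and on tagged H3.3, from the central parts of chromosomes II, III, IV and V of C. elegans that carried H3K27me3 in the wild type but held little H3.3. A bin was taken if it lay in the centre of its chromosome, if wild-type H3K27me3 was above 0 and if tagged H3.3 was below -0.5, both as log2 of immunoprecipitate (IP) over input. Of 100269 bins of the nuclear genome, 33486 lay in these 4 centres and 22380 of those were marked by H3K27me3. The rule kept 10715 bins, or 47.9% of the marked ones. Chromosome V held 5079 of them, IV held 3072, II held 1657 and III held 907, so that V alone contributed 47.4%. The bins covered 60.8% of the marked centre of V, 50.2% of that of IV, 36.2% of that of II and 27.3% of that of III. Positions are those of the WBcel215 build used by the authors. The centres ran from 4879001 to the bin starting at 12019001 on II, from 3722001 to 10339001 on III, from 3896001 to 12969001 on IV and from 5897001 to 16549001 on V.

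H3K27me3 is placed on lysine 27 of histone H3 by Polycomb repressive complex 2 (PRC2) and is a mark of silenced chromatin. In the worm germ line it covers silent autosomal regions and is abundant on the X chromosome, while H3K36me3 marks transcribed chromatin. H3.3 is a histone variant that is deposited outside of replication, by chaperones that recognize a short motif distinguishing it from canonical H3, and it is frequent where genes are active. In the oncohistone H3.3K27M methionine replaces lysine 27, so that the altered histone cannot be methylated there, and PRC2 is hindered by it. The bins described here carry the mark in the wild type but little of the variant that bears the mutation, and the question is what became of the mark there with K27M.

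The study profiled nuclei of young adult worms grown at 20 °C, a preparation enriched for germ cells, by native ChIP-seq. It comprised 20 libraries (10 IP and 10 input) from 8 strains, with 1 IP library per group, so the values of any 1 strain come without a replicate error. An antibody against di- and trimethylated lysine 27 gave H3K27me3 in 6 strains. Strains without K27M were the wild type, H3-like, in which allele uge67 gives the H3.3 gene his-72 on chromosome III the changes A87S, A88V, I89A and G90M and thus the motif of canonical H3, and duplication, which bears mnDp10 [umnls31] (X;I), an added copy of a part of X, in an unc-3 (e151) background. Their counterparts with K27M were H3.3K27M, with the his-72 allele uge40 that adds K27M, duplication H3.3K27M, labelled as having uge40 together with the duplication and unc-3 alleles, and H3-like K27M, with allele uge68 that joins K27M to the same 4 changes. The histone itself was mapped by an OLLAS epitope tag in H3.3 OLLAS, allele uge69 of his-72, and in H3.3K27M OLLAS, allele uge79, which holds both the tag and K27M. H3K36me3 was profiled for H3.3K27M and the wild type. Each his-72 genotype is represented by 1 engineered allele, and cell types within the preparation cannot be told apart.

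The deposited values were of 2 kinds, log2 IP over input and input-subtracted signal in scaled reads per 100 bp. All tracks had been scaled to the same number of reads, so they show how a mark was spread along the genome and not how much of it a strain held. Whole reads could be recovered from the input-subtracted tracks, and within the bins described here the median number per 100 bp ranged from 31.0 to 400.8 in the 10 IP libraries and from 24.7 to 303.6 in their inputs. The H3K36me3 pair was the shallowest. From these reads a log2 ratio in 1 kb bins was computed for the duplication pair and for H3K36me3, for which none was used in deposited form, and it is called recovered log2 below. The duplication libraries also differed in input coverage. In the library labelled duplication the input over the last 5 Mb of X was 1.36 times its genome-wide median, whereas in the library labelled duplication H3.3K27M it was 0.98 times, as in strains with no added copy of X. The coverage of the latter thus goes against its label, and the name duplication H3.3K27M stands for the library so labelled throughout. In the bins described here, the input of duplication was 0.82 times its genome-wide median, against 0.97 to 1.03 times in the inputs of the other 5 H3K27me3 strains. The part of these differences in the results below was not tested.

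The tracks that chose the bins are given first, as a description without a test. Wild-type H3K27me3 had a median log2 of 0.39 over the bins and differed little between chromosomes, from 0.36 on III to 0.40 on V. H3.3 OLLAS had a median of -0.83 and was lowest on V, at -0.91, compared with -0.71 on III. The 797 bins within 0.05 below the H3.3 threshold had a median H3K27me3 of -0.84 in H3-like K27M and of -0.34 in H3.3K27M, and the 826 marked bins within 0.05 above it had -0.87 and -0.50. At the H3K27me3 threshold, 37 bins lay within 0.05 above 0 and 24 H3.3-poor centre bins within 0.05 below, with medians of -1.21 and -1.37 in H3.3K27M.

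Without K27M the bins remained marked in both strains that the rule had not used. In H3-like the median log2 was 0.43, with 0.45 on V, 0.43 on IV, 0.38 on III and 0.42 on II, and 99.0% of the bins were above 0. In duplication the recovered log2 had a median of 0.66, with 0.67, 0.70, 0.55 and 0.63 in the same order. In duplication 96.3% of the bins were above 0. The shares of all bins of the genome above 0 in H3-like and duplication are not given here. The chromosomes thus lay close together in both strains. As input-subtracted signal, the median over the bins was 35.7 scaled reads in H3-like, 47.7 in duplication and 44.6 in the wild type.

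With H3.3K27M the same bins split by chromosome. The median log2 of H3K27me3 was 0.96 on V, -0.14 on II, -0.32 on IV and -1.15 on III. The spread within a chromosome was wider than in strains without K27M, with 25th to 75th percentiles from 0.67 to 1.10 on V, from -0.82 to 0.46 on II, from -1.06 to 0.38 on IV and from -1.55 to -0.52 on III. Of the bins on V, 90.8% were still above 0 (95% Wilson interval 90.0% to 91.6%), compared with 44.5% on II (42.1% to 46.9%), 39.1% on IV (37.4% to 40.8%) and 13.2% on III (11.2% to 15.6%). Over the 4 chromosomes the share was 62.2%, where 39.4% of all bins of the genome were above 0 in this strain. The intervals count bins as if independent, and spread between libraries is not in them.

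The same split was visible in the reads. In H3.3K27M the scaled IP reads of the bins on V were 4.10 times those of the bins on III, while the input of V was 0.94 times that of III. In the wild type the corresponding ratio of IP reads was 1.00, with an input ratio of 0.96. The bins on II and IV had 2.02 and 1.57 times the IP reads of those on III in H3.3K27M. The inputs thus differed between chromosomes by far less than the IP reads did.

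**Figure D1:**
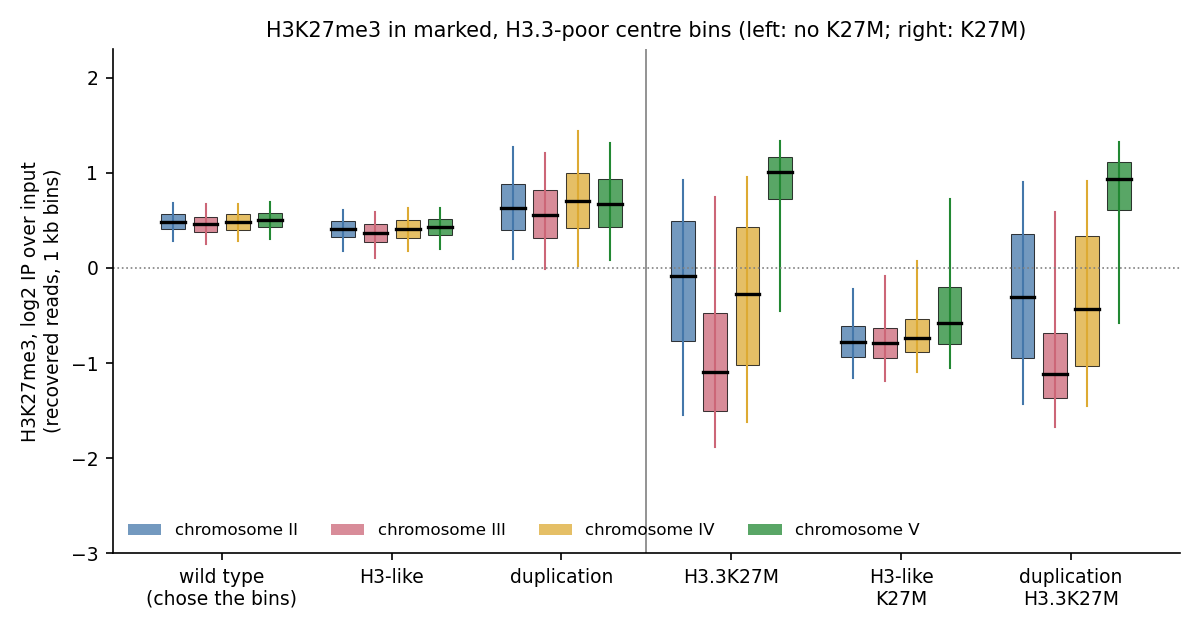
H3K27me3 (recovered log2 IP over input, vertical axis) in the marked, H3.3-poor centre bins of chromosomes II, III, IV and V for each of the 6 strains. Bars in the boxes are medians, boxes span the 25th to 75th percentile and lines the 5th to 95th percentile of bins, with 1 library per strain. The 4 chromosomes lie together in the 3 strains on the left and in H3-like K27M, whereas V stands above II, IV and III in H3.3K27M and in duplication H3.3K27M.

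Duplication H3.3K27M, a separate library with the same his-72 allele, gave the same order. Its median recovered log2 was 0.94 on V, -0.31 on II, -0.43 on IV and -1.12 on III. The IP reads on V were 4.14 times those on III, with an input ratio of 0.96. Of all bins, 59.4% were above 0, against 38.3% of the genome in this library. Bin by bin, 95.4% of the bins were on the same side of 0 in both H3.3K27M libraries, from 91.8% on II to 97.5% on V. The median difference between these libraries was -0.08 on the recovered log2 scale, and Pearson's r across the 10715 bins was 0.97 with a Spearman's rho of 0.96. Bins are not independent replicates, and the libraries share the mutant allele.

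In H3-like K27M, where the oncohistone carries the motif of canonical H3, the chromosomes did not part in this way. The median log2 was -0.58 on V, -0.73 on IV, -0.81 on III and -0.79 on II. Only 11.3% of the bins were above 0 (95% Wilson interval 10.8% to 12.0%), where 25.2% of all bins of the genome were above 0 in this strain. The share was 18.9% on V, 5.73% on IV, 3.86% on III and 2.53% on II. Of the 1215 bins above 0 in H3-like K27M, 98.8% were also above 0 in H3.3K27M, whereas 18.0% of the 6670 bins above 0 in H3.3K27M were above 0 in H3-like K27M. Set against H3.3K27M bin by bin, H3-like K27M was different by a median of 0.33 on III, -0.35 on IV, -0.62 on II and -1.34 on V.

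All 3 K27M strains were above 0 in 1196 bins (11.2%), of which 960 were on V. In 5078 bins (47.4%) H3.3K27M and duplication H3.3K27M were above 0 and H3-like K27M was not, and this state held 69.8% of the bins on V, 35.4% on II, 28.9% on IV and 6.28% on III. None of the 3 was above 0 in 3939 bins (36.8%), which were 86.1% of the bins on III and 8.82% of those on V. In 12 bins only H3-like K27M was above 0. The shares of these joint states over all bins of the genome are not given here, so the counts compare only the chromosomes. Taken singly, 39.4% of all bins of the genome were above 0 in H3.3K27M, 38.3% in duplication H3.3K27M and 25.2% in H3-like K27M.

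Pair by pair, the difference between strains with and without K27M took different signs. Between H3-like K27M and H3-like, which share no track with the rule, the median difference in log2 was -1.12, with -1.03 on V, -1.16 on IV, -1.18 on III and -1.21 on II. In this pair 63.3% of the bins were lower by more than 1 and 0.46% were higher by more than 1, where 28.2% and 20.5% of all bins were. Between duplication H3.3K27M and duplication the median difference in recovered log2 was -0.39 over all bins, with 0.18 on V, compared with -1.16 on IV, -1.71 on III and -0.98 on II. Here 34.6% of the bins were lower by more than 1 and 2.90% higher, where 28.4% and 7.08% of all bins were. H3.3K27M minus the wild type, whose subtracted track chose the bins, gave 0.05 over all bins, with 0.54 on V, -0.71 on IV, -1.49 on III and -0.54 on II.

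These signs depend on where the zero of a track is set. Subtracting from each track its genome-wide median, called centring below, added 0.95 to each difference of the H3-like pair, 0.99 to that of the duplication pair and 1.12 to that of the wild-type pair. Relative to the typical bin of the genome, the differences were then -0.08 on V, -0.21 on IV, -0.23 on III and -0.26 on II for the H3-like pair. For the duplication pair they were 1.16 on V, -0.18 on IV, -0.73 on III and 0.004 on II. For the wild-type pair they were 1.66, 0.41, -0.37 and 0.58 in the same order. Centring moves all chromosomes of a track alike, so the distance between V and the other chromosomes was not affected by it.

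The K27M contrast was then tested over strains in the 5 H3K27me3 tracks that the rule had not used, 2 without and 3 with K27M. H3.3K27M and duplication H3.3K27M share an allele, and the input of the latter showed no added copy of X. They may thus not be separate genotypes, but they were counted as separate strains here and in the limma fits. The median input-subtracted signal over all bins was 35.7 scaled reads in H3-like and 47.7 in duplication, and with K27M 40.7 in H3.3K27M, 28.4 in duplication H3.3K27M and -38.0 in H3-like K27M. The groups overlapped. With K27M the mean was 10.4 ± 42.3 (SD, n = 3 strains), against 41.7 ± 8.44 (SD, n = 2) without, a difference of -31.3 with a two-sided exact permutation p of 0.4, where 2 strains against 3 cannot go below 0.2. After subtraction of each track's genome-wide median the difference was 21.7, of opposite sign (exact permutation p 0.6).

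On single chromosomes the groups overlapped only on V on the deposited scale. On III the signal was 31.5 in H3-like and 41.2 in duplication, and -50.7 in H3.3K27M, -53.6 in duplication H3.3K27M and -44.1 in H3-like K27M. All K27M strains were thus below both others, with a mean difference of -85.8 (two-sided exact permutation p 0.2, the smallest possible). On II it was 35.4 and 46.2 without K27M, and -4.51, -18.3 and -43.9 in H3.3K27M, duplication H3.3K27M and H3-like K27M (difference -63.0, exact permutation p 0.2). On IV it was 34.8 and 47.6 without, and -15.8, -22.6 and -39.6 with K27M in the same order (difference -67.2, exact permutation p 0.2). On V it was 37.0 and 49.2 without, and 101.3, 92.0 and -32.6 with K27M, so that H3-like K27M lay below and the other K27M strains above. The difference on V was 10.4 with an exact permutation p of 1.0, and it turned to -13.4 without the library of H3.3K27M, to -8.77 without that of duplication H3.3K27M and to -0.10 on the recovered log2 scale. With centring the differences were -10.0 on II (exact permutation p 0.6) and -14.2 on IV (exact permutation p 0.4). They were -32.9 on III (exact permutation p 0.2) and 63.4 on V (exact permutation p 0.6). With centring the groups thus stayed apart only on III. Within a strain, V minus the other 3 chromosomes was 2.41 in H3-like and 2.77 in duplication, and 121.4 in H3.3K27M, 121.3 in duplication H3.3K27M and 8.91 in H3-like K27M. The K27M strains were all higher, by a mean of 81.3 (two-sided exact permutation p 0.2, the smallest possible, a comparison chosen after the values were seen).

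Fitted with limma across all 100269 bins, 3814 of the 10715 bins (35.6%) had lower H3K27me3 with K27M and 272 (2.54%) had higher H3K27me3 at a Benjamini-Hochberg adjusted p under 0.05. Over the genome 28.8% of bins were lower and 18.1% higher. By chromosome, 749 bins of III (82.6%), 1774 of IV (57.7%), 882 of II (53.2%) and 409 of V (8.05%) were lower, and 3, 50, 5 and 214 were higher. Of the calls 6.66% were higher on the deposited scale, and 49.1% after centring, which gave 958 lower (8.94%) and 924 higher bins (8.62%). Over the genome 5.06% were lower and 43.3% higher after centring, so that higher calls were scarcer among the bins than in the genome on both scales. All 3 K27M strains lay below both others in 4902 bins (45.7%) and above both in 535 (4.99%), compared with 37.6% and 23.1% of the genome.

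The number of calls rested on single libraries. Without the duplication library, which left H3-like as the only strain without K27M, limma called no bin in either direction, in the genome as well. Without H3-like there were 2472 lower (23.1%) and 77 higher bins (0.72%), where 14.9% and 4.37% of the genome were called. Without duplication H3.3K27M there were 2980 lower (27.8%) and 169 higher (1.58%), where 19.5% and 15.6% of the genome were called. Without H3-like K27M there were 3950 lower (36.9%) and 3286 higher bins (30.7%), where 30.0% and 26.3% of the genome were called, so that the share of higher bins then lay above that of the genome. Of these higher bins 2883 were on V. Labels do not say whether the libraries came from separate cultures, and these p-values measure only the spread between strains.

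**Figure D2:**
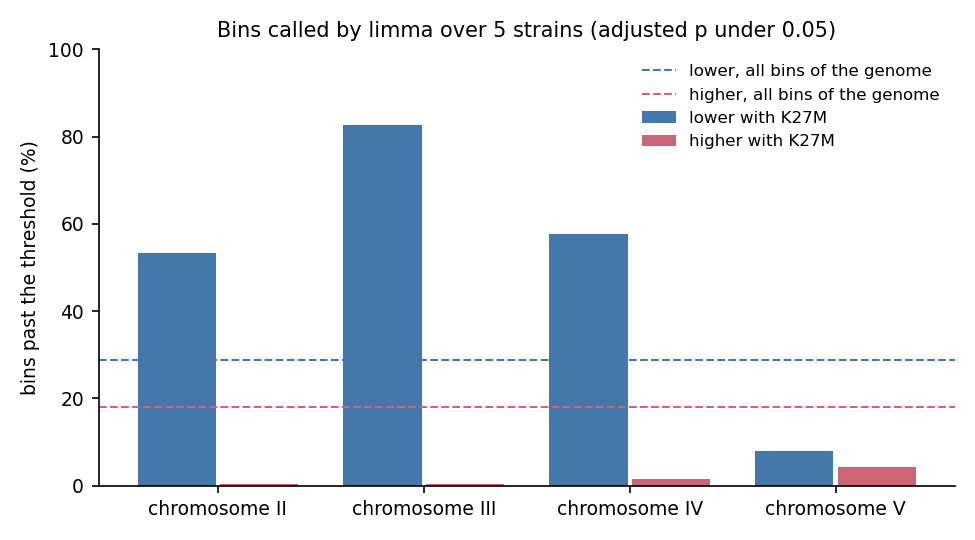
Percent of the marked, H3.3-poor centre bins on each chromosome (vertical axis) that limma called lower or higher with K27M over 5 strains, as bars. Dashed lines give the percent over all bins of the genome, 28.8% lower and 18.1% higher. Chromosome III stands at 82.6% lower, and V at 8.05% lower and 4.21% higher.

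To see what set these bins apart from other marked centre bins, they were compared with the 7205 marked bins in which H3.3 OLLAS was between -0.5 and 0 (middle) and the 4460 in which it was at 0 or above (rich). In H3.3K27M the median log2 of H3K27me3 was 0.45 in the H3.3-poor bins, -0.66 in the middle bins and -0.96 in the rich bins, and 62.2%, 32.5% and 24.6% of them were above 0. In H3-like K27M the medians were -0.69, -0.92 and -1.02. In H3-like, without K27M, they were 0.43, 0.36 and 0.26. The poor bins were the highest in each of these 3 strains, and the step from poor to rich was widest in H3.3K27M. These classes pool the chromosomes in unlike proportions. The poor bins were 60.8% of the marked centre bins of V but 27.3% of those of III. The part of this chromosome mix in the steps, here and in the comparisons below, was not tested.

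As input-subtracted signal, the poor bins exceeded the rich ones by 15.3 in H3-like and by 21.3 in duplication, and by 89.5 in H3.3K27M, 77.0 in duplication H3.3K27M and 19.1 in H3-like K27M. The mean difference between the groups was 43.6 (two-sided exact permutation p 0.4, since H3-like K27M lay between the strains without K27M). On the recovered log2 scale the groups did not overlap and the difference was 0.80 (exact permutation p 0.2). Against the middle bins, the poor bins were higher by 6.03 in H3-like and 8.91 in duplication, and by 75.4, 68.2 and 12.9 in H3.3K27M, duplication H3.3K27M and H3-like K27M (difference 44.7, exact permutation p 0.2).

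Bins of X that met the same 2 thresholds, 6150 in number and compared after the values had been seen, started from a similar level but lay apart with K27M. Their median log2 was 0.46 without K27M in H3-like, but 1.25 in H3.3K27M, with 1.55 in H3-like K27M, and 99.5% and 99.6% were above 0 in these mutants. The autosomal bins minus these X bins gave -0.96 in H3-like and -2.99 in duplication, and -105.3 in H3.3K27M, -104.4 in duplication H3.3K27M and -224.9 in H3-like K27M (difference -142.9 scaled reads, exact permutation p 0.2). The autosomal bins of V in H3.3K27M, at 0.96, came nearest to X among the 4 chromosomes.

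**Figure D3:**
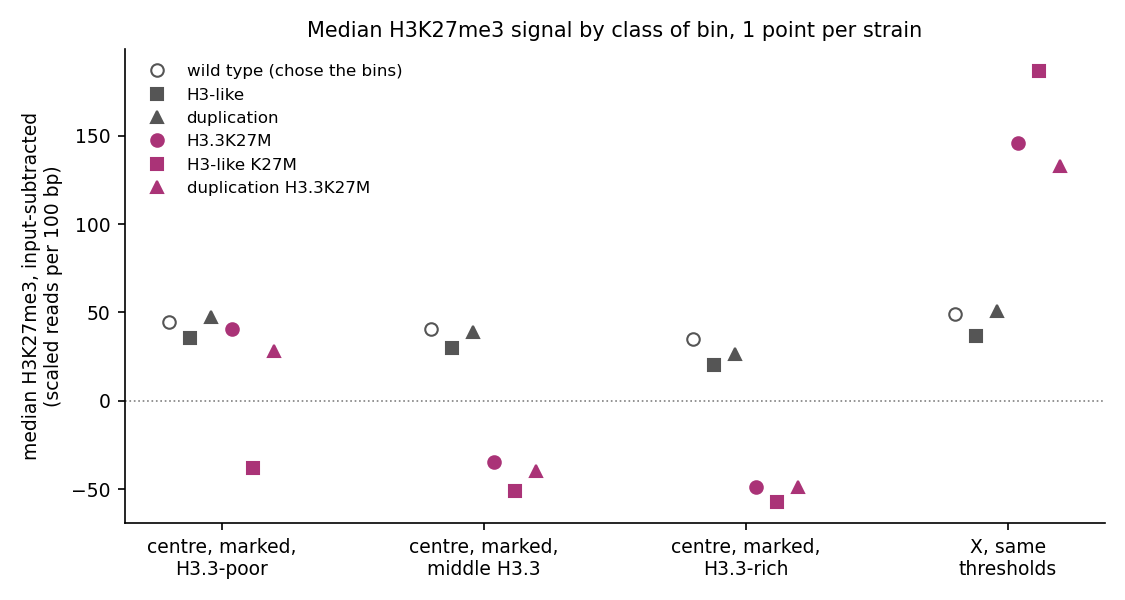
Median input-subtracted H3K27me3 (scaled reads per 100 bp, vertical axis) of 4 classes of bin, 1 point per strain, grey without and purple with K27M. Within the H3.3-poor centre bins H3.3K27M (40.7) and duplication H3.3K27M (28.4) lie near the strains without K27M and H3-like K27M (-38.0) lies below, whereas in X bins within the same thresholds all K27M strains lie above.

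Within the chosen bins H3K27me3 in H3.3K27M was higher where H3.3 was scarcer, and the chromosomes kept apart within strata of H3.3 OLLAS. Since H3.3 OLLAS chose the bins, these values are a description. Over all bins the median log2 of H3.3K27M was -0.12 in the 4049 bins with H3.3 OLLAS from -0.75 to -0.5, 0.43 in the 3561 bins from -1 to -0.75, 0.84 in the 2268 bins from -1.25 to -1 and 1.05 in the 837 bins below -1.25. In the stratum from -1 to -0.75 the median was 0.93 on V, -0.04 on II, -0.21 on IV and -1.06 on III. In the stratum from -1.25 to -1 it was 1.03, 0.38, -0.08 and -0.43 in the same order. On III the 20 bins below -1.25 had a median of -1.26, lower than the stratum above them. In H3-like, without K27M, these 20 bins also had a low median, -0.05 against 0.40 in the stratum above them. They had 0.31 in the wild type and a recovered log2 of 0.47 in duplication. In H3-like K27M the chromosomes lay closer, with -0.63 on V, -0.76 on II, -0.69 on IV and -0.79 on III in the stratum from -1 to -0.75. The tagged oncohistone was not matched by these strata. In the stratum from -1 to -0.75 H3.3K27M OLLAS was -0.86 on V, -0.76 on II, -0.76 on IV and -0.71 on III, and in the stratum from -1.25 to -1 it was -1.14, -1.06, -0.98 and -0.99 in the same order.

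The H3.3K27M OLLAS track, which the rule had not used, was related to H3K27me3 in the same direction. Across the bins, Pearson's r between H3.3K27M OLLAS and H3K27me3 in H3.3K27M was -0.44 (Spearman's rho -0.49, n = 10715), and within chromosomes r was -0.39 on V, -0.31 on IV, -0.25 on III and -0.30 on II. With H3K27me3 in H3-like K27M it was -0.46 over all bins. Between wild-type H3K27me3, which the rule had cut at 0, and H3K27me3 in H3.3K27M r was 0.27 over all bins, with 0.26 on V, 0.28 on IV, 0.45 on III and 0.26 on II. Neighbouring bins are not independent in smoothed tracks, and the tracks share mappability and base composition, so no p-value is given.

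**Figure D4:**
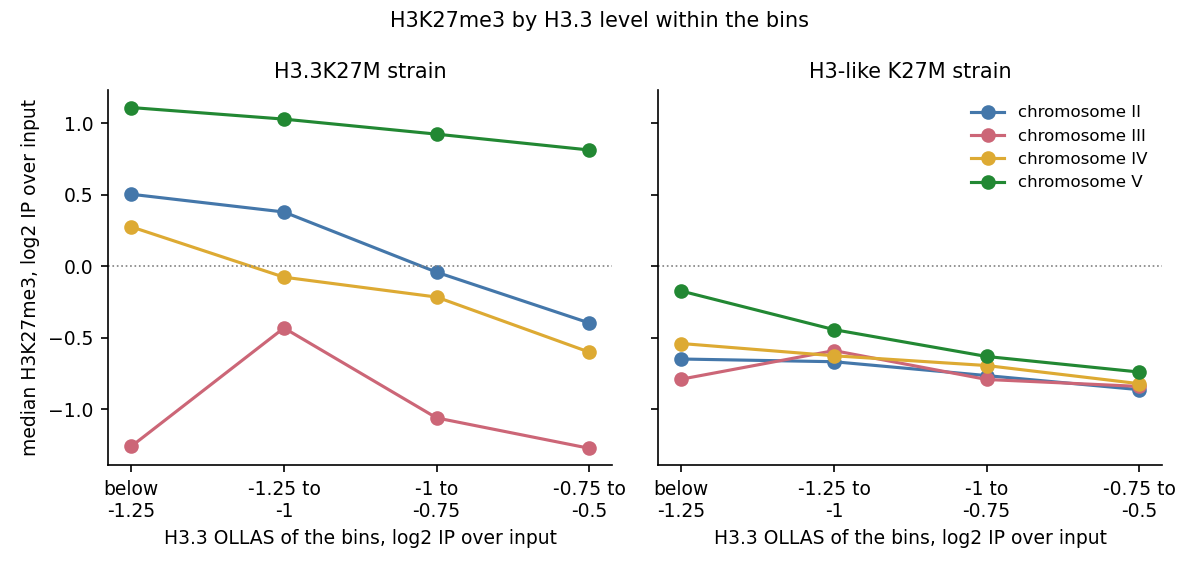
Median H3K27me3 (log2 IP over input, vertical axis) of the bins by their H3.3 OLLAS level (horizontal axis, log2 IP over input, scarcest on the left) on each chromosome, in H3.3K27M on the left and H3-like K27M on the right, with 1 library each. In H3.3K27M chromosome V runs above II and IV, and III below them, at each H3.3 level.

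The bins formed 1760 unbroken runs, with a median length of 3 kb and 553 of a single bin. Runs of at least 10 kb held 69.0% of the bins on V, 54.7% on IV, 50.2% on II and 35.5% on III. Position within a run went with the state in the mutants. In H3.3K27M the median log2 was -0.26 in the 2967 bins at the edge of a run, 0.09 in the next bin, 0.44 at 2 to 4 kb from the edge and 0.92 in the 3201 bins at 5 kb or more. Of the edge bins 42.9% were above 0, and of the innermost bins 84.5%. This order held on each chromosome: 77.3% against 99.0% on V, 30.4% against 74.1% on II, 25.7% against 61.0% on IV and 7.65% against 27.05% on III. In H3-like K27M 4.85% of edge bins and 21.9% of innermost bins were above 0, although on II the innermost bins had the smaller share, 1.71% against 2.36%. H3.3 OLLAS was lower inside, from a median of -0.65 at the edge to -1.05 in the innermost bins, so that position and H3.3 level moved together. Wild-type H3K27me3 was 0.37 at the edge and 0.41 inside.

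**Figure D5:**
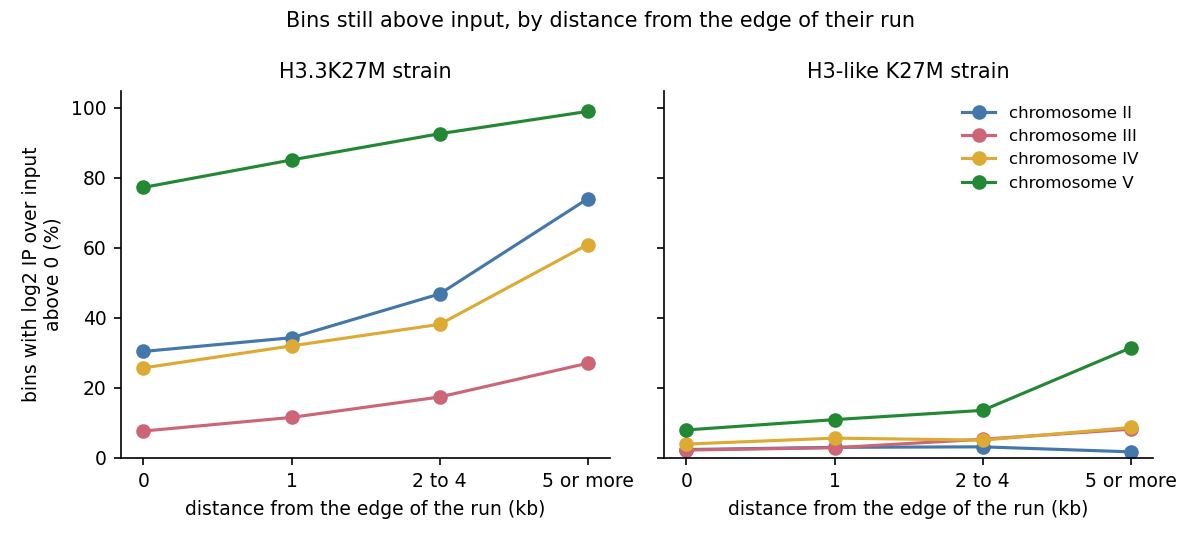
Percent of bins above 0 in H3K27me3 (log2 IP over input, vertical axis) by distance in kb from the edge of their run (horizontal axis) on each chromosome, in H3.3K27M on the left and H3-like K27M on the right. In H3.3K27M the share is higher inside than at the edge on all 4 chromosomes, from 77.3% to 99.0% on V and from 7.65% to 27.05% on III.

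The longest runs show what a continuous stretch looked like. On V the longest run, from 7260001 to 7384000 (124 kb), had a median log2 of 0.41 (wild type) and 0.48 (H3-like) without K27M, 1.12 in H3.3K27M but -0.42 in H3-like K27M, with a recovered log2 of 0.69 in duplication and 1.11 in duplication H3.3K27M. All its bins were above 0 in H3.3K27M but only 5.65% in H3-like K27M, and limma called none of them (0 lower, 0 higher). The second run of V, from 15775001 to 15867000 (92 kb), had 0.41 (wild type), 0.42 (H3-like) and 1.20 (H3.3K27M). Unlike the first it had 0.61 in H3-like K27M, with 80.4% of its bins above 0, and limma called 33 of them higher and 0 lower.

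On the other chromosomes the longest runs were shorter and held different levels. On II the run from 9432001 to 9477000 (45 kb) had 0.87 in H3.3K27M but -0.62 in H3-like K27M, and that from 9842001 to 9878000 (36 kb) had 0.51 and -0.67, with 0 and 7 bins called lower. On IV the run from 5863001 to 5910000 (47 kb) had 0.04 and -0.63, and that from 4932001 to 4977000 (45 kb) had 0.56 and -0.58, with 20 and 8 bins called lower. On III the run from 10019001 to 10048000 (29 kb) had -0.45 and -0.64, and 23 of its bins were called lower. The other run of III, from 6747001 to 6773000 (26 kb), stood out from its chromosome with 0.83 in H3.3K27M, 0.68 in duplication H3.3K27M (recovered log2) and -0.23 in H3-like K27M, all of its bins were above 0 in H3.3K27M, and 0 were called lower. None of these 6 runs held a bin called higher (0 in each). In duplication its recovered log2 was 0.20, lower than in the other 7 runs (0.60 to 1.05). All 8 runs lay between 0.36 and 0.52 in the wild type. Genes within these runs are not named, since no annotation of the build of the files was used here.

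In windows of 500 kb with at least 20 of the bins, the median log2 in H3.3K27M was above 0 in all 23 windows of V (0.51 to 1.14), in 5 of 13 on II (-0.90 to 0.26), in 5 of 19 on IV (-1.29 to 0.64) and in 0 of 13 on III (-1.67 to -0.55). The lowest window of V thus lay above the highest window of II, and within the range of IV. In H3-like K27M 2 windows were above 0, both on V. They lay in the right part of the V centre, and from 15000001 on, a boundary chosen after the values were seen, the 1124 bins had a median of 0.17 in H3-like K27M and 61.7% were above 0. In the other 3955 bins of V the median was -0.66 and 6.80% were above 0. The right part held 10.5% of all bins described here and 57.0% of those above 0 in H3-like K27M. In H3.3K27M the medians were 1.11 and 0.90, and in H3-like 0.42 and 0.46. H3.3 OLLAS was -1.05 in the right part and -0.87 in the rest. Of the 214 bins of V called higher by limma, 171 were among the 1124 bins of the right part, where 37 were called lower. In the other 3955 bins of V limma called 43 higher and 372 lower. Over the genome 18.1% of bins were called higher and 28.8% lower.

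Among the called bins whose H3-like and duplication pairs moved the same way, the one with the largest rise and the one with the largest fall on each chromosome were taken. On V the bin from 15461001 to 15462000 rose by 296.9 scaled reads (SE 48.1, limma adjusted p 0.011). Its signal was 52.5 in H3-like and -28.1 in duplication, and 378.7 in H3.3K27M, 242.6 in duplication H3.3K27M and 306.1 in H3-like K27M. On IV the bin from 7595001 to 7596000 rose by 259.2 (SE 39.1, limma adjusted p 0.009), from 69.9 and 136.4 to 416.8, 362.5 and 307.8 in the same order of strains. On II the bin from 11211001 to 11212000 rose by 271.9 (SE 61.4, limma adjusted p 0.022) and on III the bin from 10232001 to 10233000 by 151.3 (SE 12.3, limma adjusted p 0.008).

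In these 4 bins H3K36me3 in H3.3K27M was also above that in the wild type, at recovered log2 values of 1.15 and 0.40 in the bin of II, 1.19 and 0.38 in that of III, 0.91 and 0.37 in that of IV and 1.23 and 0.78 in that of V. Their input was above the genome-wide median in the 6 H3K27me3 strains, between 1.23 and 2.74 times, and differed between strains, for example 2.73 times in duplication and 1.56 times in duplication H3.3K27M in the bin of II. The part of the input in these rises was not tested.

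The largest falls were -396.2 on III from 10225001 to 10226000 (SE 67.2, limma adjusted p 0.011), -291.1 on V from 10610001 to 10611000 (SE 43.6, limma adjusted p 0.009), -176.7 on IV from 10351001 to 10352000 (SE 14.6, limma adjusted p 0.008) and -136.6 on II from 8707001 to 8708000 (SE 18.0, limma adjusted p 0.008). In the bin of III the signal was 187.9 in H3-like and 348.4 in duplication, and -211.5, -113.1 and -59.5 in H3.3K27M, duplication H3.3K27M and H3-like K27M. In the bin of V it was 7.66 and -26.8 without K27M, so that this fall started near 0 in the strains tested, in a bin whose input was 4.31 to 5.44 times the genome-wide median. All 8 bins lost their call without the duplication library, but that fit called no bin of the genome, so this loss is not particular to them. Without H3-like the rises on II and IV and the fall on V also lost it (limma adjusted p 0.084, 0.057 and 0.061), and the rise on II lost it when the wild-type track was added (limma adjusted p 0.096).

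The tagged oncohistone was scarce in the same bins. H3.3K27M OLLAS had a median log2 of -0.77 over the bins, with -0.90 on V, -0.71 on IV, -0.60 on III and -0.67 on II, and 28 of the bins (0.26%) were above 0. Its difference from H3.3 OLLAS, the track that chose the bins for low values, was 0.06 over all bins, with 0.01 on V, 0.12 on IV, 0.13 on III and 0.11 on II. Across the bins the tagged histones had a Pearson's r of 0.79 and a Spearman's rho of 0.80 (n = 10715), within a range of H3.3 that the rule had narrowed. The chromosome with the scarcest oncohistone, V, was also that with the highest H3K27me3 in H3.3K27M, and III had the most oncohistone and the lowest H3K27me3. Between them the order was broken, since II had more oncohistone than IV but also higher H3K27me3. With 4 chromosomes this relation was not tested. Placement of the H3-like K27M histone was not analysed here.

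H3K36me3 was compared between H3.3K27M and the wild type in the 678 windows of 10 kb in which at least 8 of 10 bins were among those chosen. The median log2 was -0.48 in H3.3K27M against -0.26 in the wild type, and the median difference was -0.22 (95% interval of the median -0.24 to -0.19, over windows of 1 library each). On V it was -0.13 (370 windows), compared with -0.30 on II (85), -0.26 on III (32) and -0.35 on IV (191). The median difference over all 10024 windows of the genome was -0.04. In 1 of the 678 windows (0.15%) H3K36me3 was lower by more than 1 and in 0 higher, where 0.14% and 0.02% of all windows were. On the recovered log2 scale in 1 kb bins the level was 0.04 for the wild type and -0.34 for H3.3K27M, compared with -0.14 and -0.59 in the middle bins and -0.42 and -0.86 in the rich bins. Centring moved this difference from -0.34 to -0.09, and on V from -0.22 to 0.03. These libraries held a median of 40.6 and 31.0 IP reads per 100 bp in the bins, and no test of the difference is possible with 1 library per group.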

How the data were processed

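Native ChIP-seq libraries of young adult nuclei were used as deposited. Per the study's methods, the authors aligned reads with Novoalign at default settings to WBcel215, took the maximum read number per bin, scaled each track to the same number of reads, merged replicates that passed quality control and smoothed the tracks. How many replicates were merged and how far tracks were smoothed is not given in the sources used here. The authors deposited log2 ratios of IP over input in 1 kb and 10 kb bins and, as a score, the input-subtracted scaled reads in 100 bp bins. Of 27 tracks, 23 were used, and 4 that match no described library were not analysed here.

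Bins were 1 kb, and input-subtracted values were averaged over each. Whole reads were recovered from the 100 bp tracks (tolerance 2e-08 reads, scaled input searched to 1500), and recovered log2 is log2 of scaled IP plus 1 over scaled input plus 1. Against the deposited 1 kb log2 it had a Pearson's r of at least 0.991 across bins. limma 3.58.1 (R 4.3.3) was fitted on input-subtracted signal over all 100269 bins with 2 strains without and 3 with K27M, and p-values were adjusted by Benjamini-Hochberg over all bins. The limma code was tested on simulated data. Bins at 0 in all tracks were kept. Medians were compared over strains by exact two-sided permutation (Python 3.11.15, numpy 2.4.6, pandas 2.3.3, scipy 1.17.1, matplotlib 3.10.9). Intervals of shares are Wilson intervals. Intervals treat bins or windows as independent draws, and neither they nor the read numbers hold the spread between libraries.

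The bins and the comparisons were chosen with earlier results of these data known. The runs named were the 2 longest on each chromosome. The bins named were, on each chromosome, the called bins with the largest rise and the largest fall whose H3-like and duplication pairs moved the same way. Alternatives were other thresholds, scalings, sets of tracks, 10 kb windows and leaving out each library.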

Additional observations from a re-analysis of the deposited data

Results flagged for a closer look

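On chromosome V the pairs of strains with and without K27M moved in opposite directions. The median difference in input-subtracted H3K27me3 over the 5079 bins was 56.0 scaled reads for H3.3K27M minus the wild type, whose track chose the bins, and 39.9 for duplication H3.3K27M minus duplication, but -68.9 for H3-like K27M minus H3-like. Each pair holds 1 library a strain, and the difference between the pairs was not tested. With other bins of the genome as reference the H3-like pair of V was at -0.08 on the log2 scale, the duplication pair at 1.16 (recovered log2) and the wild-type pair at 1.66.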

How the results depend on the processing

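The limma counts of 3814 lower and 272 higher bins depended on the scaling, the selection and the libraries. They were 958 and 924 after centring, which subtracts from a track its genome-wide median, and 165 (24.3%) and 20 (2.95%) of 678 windows in 10 kb windows, where fewer features were tested. In 10 kb windows 33.4% of the genome was lower and 20.4% higher, so that the share of lower calls, above that of the genome in 1 kb bins (35.6% against 28.8%), was below it. The 678 windows were those with at least 8 of 10 bins among the ones chosen, and 370 of them were on V. They thus differ from the single bins in make-up as well as in width. There were 6220 lower bins with H3.3 OLLAS below -0.25 (42.3% of 14710 bins) and 1774 with H3.3 OLLAS below -0.75 (26.6% of 6666 bins). Higher bins numbered 284 (1.93%) and 244 (3.66%) in the same order. In 1 kb bins 28.8% of the genome was lower and 18.1% higher. The share of lower calls was thus below that of the genome with the threshold of -0.75. Leaving out 1 library at a time gave 0 to 3950 lower and 0 to 3286 higher bins, with 0 of each without duplication and 77 higher bins without H3-like. The median difference of -31.3 scaled reads between strains with and without K27M became 21.7 with centring and lay between -46.5 and -7.15 when 1 library was left out. On V the difference of 10.4 became -13.4 in the H3-like and duplication pairs alone, which is the same as leaving out H3.3K27M, -8.77 without duplication H3.3K27M and -0.10 as recovered log2, with a range of -13.4 to 53.5 when 1 library was left out. The difference between H3.3-poor and H3.3-rich bins (29.8 to 65.0) and that between V and the other chromosomes (62.5 to 118.8) stayed positive when 1 library was left out, in designs too small to reach a p under 0.05.

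With H3.3 OLLAS below -0.25, below -0.75 and with wild-type H3K27me3 above 0.25, in this order, 55.1%, 71.4% and 65.3% of bins were above 0 in H3.3K27M and 9.04%, 15.5% and 12.3% in H3-like K27M. In the same order the H3-like pair differed by -1.16, -1.05 and -1.11 and H3.3K27M OLLAS was at -0.62, -0.94 and -0.79. With centring the shares were 80.4% and 54.6% and the H3-like pair differed by -0.17. These shares count bins above the genome-wide median of the track, which by definition has as many genome bins above as below. In H3-like K27M the bins were thus below the genome on the deposited scale (11.3% against 25.2%) and slightly above it with centring. In bins at least 5 kb from the edge of a run the shares were 84.5% and 21.9%. H3K36me3 differed by -0.15 with H3.3 OLLAS below -0.75 and by -0.17 in windows with 10 of 10 bins. Apart from the effects of fewer features or libraries, the cause was not tested. Replicate numbers pair no libraries, since each group has 1. Strains with and without K27M do pair by labelled background (wild-type, H3-like or duplication), although the input of duplication H3.3K27M showed no added copy of X. With background as a block over 6 tracks limma called 4152 bins lower (38.7%) and 372 higher (3.47%), where 30.1% and 19.1% of the genome were called. That fit holds the wild-type track, which chose the bins, and its counts are a description.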
